A study of Sus scrofa with 32 samples.

Results

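The livers of 4 control pig fetuses at gestational day 110, close to term, were compared with those of 4 control fetuses at day 70. The samples were taken by their titles, 8 of the 32 in the study, each a Cy3-labelled liver RNA on a single-colour Agilent array. Every fetus, control or runt, came from a gilt (a young sow) from which 1 uterine horn and 1 ovary had been removed before artificial insemination, so the uterus was crowded in all groups. Per the labels, control fetuses were littermates of growth-retarded ones, called runts here, and the 4 controls of a day came from separate gilts. The fetuses of day 70 and of day 110 were therefore different animals from different litters. Breed and fetal sex were not given in the sources used here. Runts at the same days, 4 at day 70 and 4 at day 110, and controls at days 37 and 50 are used below only beside the control values.

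The fetal liver is first a blood-forming organ, in which red cell precursors, megakaryocytes and granulocyte precursors sit among dividing hepatoblasts. Toward birth blood formation moves to the bone marrow, hepatocytes leave the cell cycle, and the secreted proteins, hormone receptors and metabolic enzymes of the newborn liver are switched on. The rise of fetal cortisol before birth is known to drive part of that switch. The samples were pieces of whole liver, so fewer cells of a type and less RNA per cell cannot be told apart.

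Levels are on a log2 scale, each array having been set against its own 75th percentile of processed signal, so that 0 is the signal at that percentile and 1 unit is a factor of 2. A gene is said to rise or fall where the limma fit put the change at 2-fold or more with an adjusted p below 0.05. Of 28670 features tested, 3560 passed (12.4%), with 1521 higher at day 110 (5.31%) and 2039 lower (7.11%). A gene symbol could be given to 1596 features, of which 286 passed (17.9%), 134 higher (8.4%) and 152 lower (9.52%). The 4 arrays of a day did not overlap those of the other day for 24.6% of all features and 33.8% of those with a symbol. The median change was 0.04 over all features and 0.01 over those with a symbol. A list of genes below should be read against these shares. For comparison, 7.66% of features passed from day 50 to day 70 and 3.42% from day 37 to day 50.

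Arrays of 1 day correlated at 0.963 to 0.977 at day 70 and 0.961 to 0.979 at day 110 across features, and arrays of different days at 0.922 to 0.957. The component with the most variance over the 8 arrays, 45.2%, separated the days. Between 51.3% and 68.5% of spots were well above background, lowest on day 70 replicate 4, and no spot was saturated. All day 70 arrays lay at position 3 of their slide and all day 110 arrays at position 4, so day and array position cannot be told apart. The liver label was borne out by hepatocyte markers, of which 5 of 7 were measured (ALB, APOA1, SERPINA1, TF and TTR). Their mean level was 8.04 to 9.07 on the day 70 arrays and 7.88 to 8.57 on the day 110 arrays, and 0 of the 5 passed.

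Among genes above background on all 4 arrays of the higher group and with groups apart, the 12 largest fitted rises were those of C6, GSTA1, C4BPA, SLC15A1, GHR, DEFB1, SULT2A1, CXCR6, APCS, KLF9, CA3 and COL8A1. The 12 largest fitted falls were those of HBE1, STEAP1, TNNI1, KCNN4, KCNN3, PHACTR3, RHCE, COX8H, UPK2, SPINK4, EPOR and PLA2G1B. CXCR6 and KLF9 were above background on no day 70 array, so their places in that order are not settled. The same holds for COX8H, above background on 1 day 110 array, and for KCNN3 and UPK2, on 2. Among features with a symbol, 15 rose and 19 fell at least 8-fold, with those below background in the lower group taken at their bound.

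**Figure D1:**
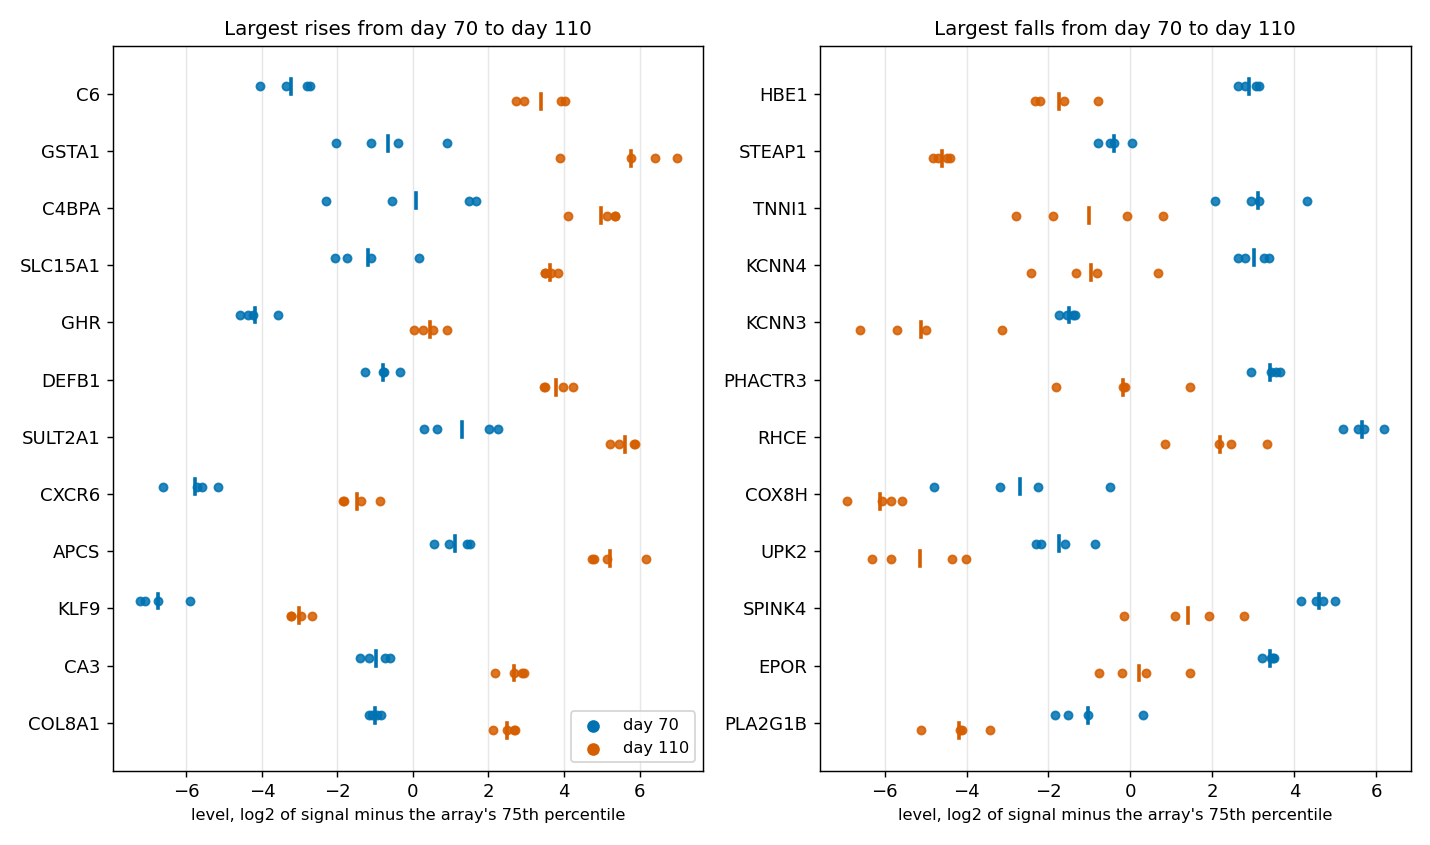
Level of the 12 genes with the largest fitted rises (left) and the 12 with the largest fitted falls (right) on each control array; points are arrays, bars are means of 4, blue is day 70 and orange day 110. The 4 arrays of each day lie apart from those of the other day for all 24 genes, as the rule for choosing them required, and spread more widely at day 110 than at day 70 for red cell genes such as EPOR and KCNN4.

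Red cell genes fell most as a group. All 7 measured members of the erythroid list passed and were lower at day 110 (0 higher), with a median change of -3.19. HBE1, the embryonic epsilon chain of haemoglobin, had levels of 3.14, 2.79, 3.06 and 2.61 at day 70 and -1.62, -2.34, -0.80 and -2.21 at day 110. Its 4 day 110 arrays all lay far below the day 70 arrays, and it fell by 4.64 (SE 0.34, limma adjusted p = 1.3e-10). EPOR, the receptor for erythropoietin, was at 3.42, 3.22, 3.49 and 3.47 at day 70 and at 0.38, -0.20, 1.45 and -0.78 at day 110. The tight day 70 group gave way to a wide one, and EPOR fell by 3.19 (SE 0.30, 9.11-fold, limma adjusted p = 4.3e-09).

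RHCE, which carries the Rh blood group antigens on the red cell surface, fell by 3.45 (SE 0.43), from 5.18 to 6.18 at day 70 down to 0.85 to 3.33 at day 110. KCNN4, the calcium-gated potassium channel of red cells, fell by 3.99 (SE 0.46), from 2.62 to 3.38 down to -2.42 to 0.68. TFRC, the receptor that takes up transferrin-bound iron, fell by 2.81 (SE 0.29). AQP1, a water channel of red cells that vessels and bile ducts also carry, fell by 3.02 (SE 0.35). Among RHCE, KCNN4, TFRC and AQP1 the falls ran from 7.01-fold for TFRC to 15.9-fold for KCNN4. Over all 7 erythroid genes the changes ran from -4.64 to -2.80, and in none of the 7 did the groups overlap.

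The day 110 arrays were not alike in this respect. Day 110 replicate 3 had the highest level of the 4 in 7 of the 7 erythroid genes, and replicate 4 the lowest in 5. The spread reached far in single genes: KCNN4 was at 0.68 in replicate 3 and -2.42 in replicate 4. The same order appeared well beyond the list. Among the 152 genes that fell, replicate 3 was the highest day 110 array in 92 (60.5%) and replicate 4 the lowest in 89 (58.6%), while over all genes with a symbol these shares were 20.3% and 35.9%. Leaving out the erythroid and cell cycle lists, replicate 3 was the highest in 73 of 132 genes that fell (55.3%).

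**Figure D2:**
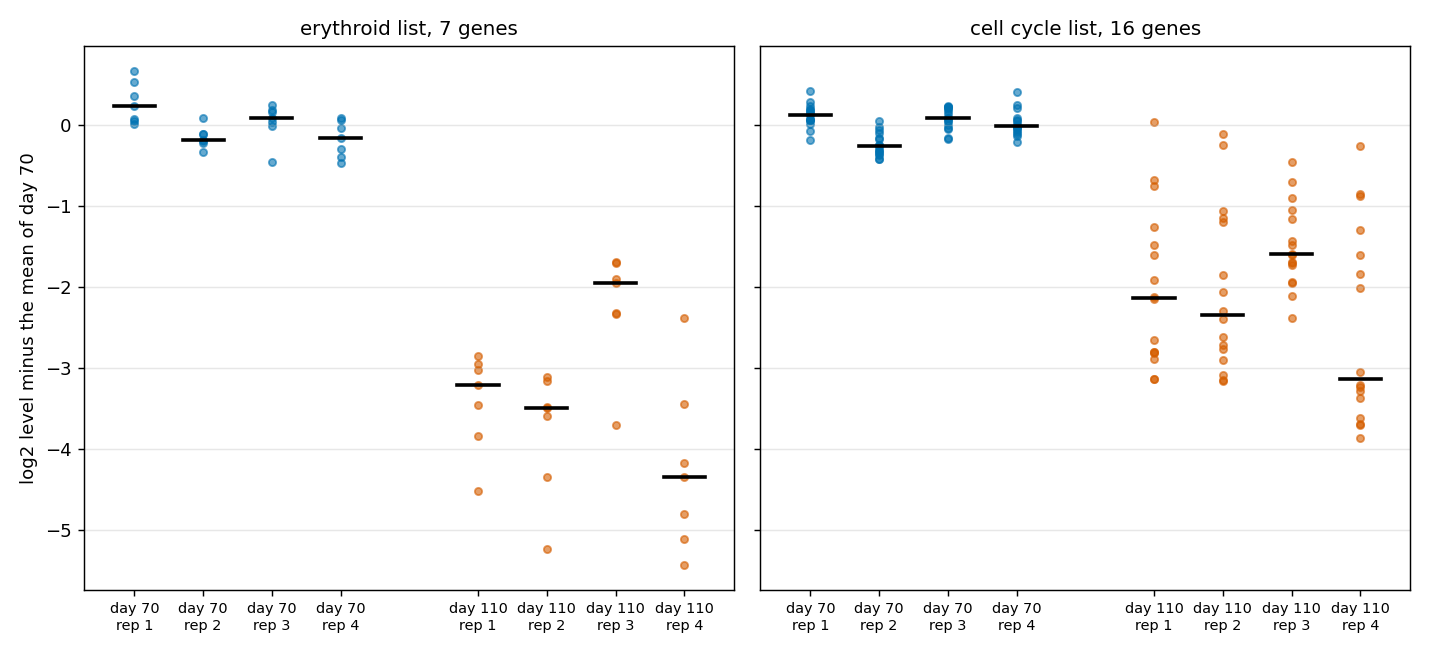
Level of each gene minus its mean at day 70, by array, for the 7 measured erythroid genes (left) and the 16 measured cell cycle genes (right); points are genes and black bars their median on that array. At day 110, replicate 3 is the highest array in 7 of 7 erythroid and 12 of 16 cell cycle genes, and replicate 4 the lowest in 5 and 11.

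Several of the largest falls outside the red cell list had the same order. TNNI1, the slow skeletal muscle form of troponin I, went from 3.14, 2.06, 4.30 and 2.94 to -0.08, -1.90, 0.79 and -2.80, and it fell by 4.11 (SE 0.59). PHACTR3, a regulator of protein phosphatase 1 and actin, went from 3.66, 2.95, 3.42 and 3.56 to -0.19, -0.13, 1.45 and -1.82, and it fell by 3.57 (SE 0.46). SPINK4, a Kazal-type protease inhibitor, fell by 3.19 (SE 0.39), from 4.15 to 4.99 down to -0.15 to 2.77. In all 3 genes replicate 3 was again the highest and replicate 4 the lowest day 110 array. Whether these genes were expressed in blood-forming cells of the liver was not tested.

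Genes of cell division fell together. Of 16 measured members of the cell cycle list, 13 fell and 0 rose, with a median of -2.26. CDK1, the kinase that starts mitosis, was at 4.46, 4.03, 4.36 and 4.24 at day 70 and at 1.14, 1.13, 2.32 and 0.57 at day 110. The groups lay well apart, and it fell by 2.99 (SE 0.23, 7.92-fold, limma adjusted p = 2.7e-10). CCNB1, its cyclin partner, fell by 3.07 (SE 0.23, 8.39-fold). TOP2A, which untangles replicated DNA, fell by 2.84 (SE 0.20), and MCM3, a subunit of the replication helicase, by 2.52 (SE 0.27). AURKA, BIRC5, CDC20 and CDC25C, which act in mitosis, changed by -2.75, -2.82, -2.67 and -2.32, all of which passed.

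The 3 members of the cell cycle list that did not pass were CDK4 (-0.91), CCND2 (-0.61) and CCNG1 (-0.23). CDK4 and CCND2 act in early G1, ahead of the genes above. A second CCND2 probe did pass, at -1.28, so the probes of that gene disagree in call. Of 7 measured genes of the list of cell cycle inhibitors and arrest, 0 passed (limma, with 4 at an unadjusted p under 0.05). The nearest to the threshold was BTG2, an antiproliferative gene, at 0.96 (SE 0.25), and 1 of the 7 passed under 8 of the alternative settings that kept the 2-fold threshold.

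Platelet genes fell as well, though less far. Of 7 measured megakaryocyte and platelet genes, 5 fell and 1 rose, with a median of -1.53. ITGB3 and ITGA2B, the chains of the platelet fibrinogen receptor, fell by 1.95 (SE 0.26) and 1.53 (SE 0.15). ITGA2B was at 2.50, 2.27, 2.75 and 2.56 at day 70 and at 0.84, 1.42, 1.13 and 0.57 at day 110, with no overlap. PPBP, the platelet basic protein, fell by 1.92, CD9 by 1.68 and SELP, or P-selectin, by 1.35. The riser was TBXAS1, thromboxane synthase, which macrophages also make, at 1.49 (SE 0.40). TBXAS1 did not pass with normexp background correction (0.54).

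Of 8 measured genes of the blood stem and progenitor list, 2 fell and 0 rose. KIT, the receptor for stem cell factor, fell by 1.74 (SE 0.40), from 1.90 to 3.47 down to 0.42 to 1.33, and CXCR4, which holds progenitors in their niche, by 1.16 (SE 0.17). CXCR4 came under 2-fold with normexp background correction (-0.85) and within slides 4 to 9 (-0.88). CD34, a marker of progenitors and of endothelium, did not pass at 0.19 (SE 0.26), nor did CXCL12, the ligand of CXCR4, at 0.09 (SE 0.28).

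Of 13 measured granulocyte genes, 5 fell and 0 rose, with a median of -1.27. NPG4 and PR39 are cathelicidins, the antimicrobial peptides of pig neutrophils. PR39 was at 6.77, 6.85, 7.49 and 7.47 at day 70 and at 4.61, 4.80, 4.83 and 5.12 at day 110, and it fell by 2.31 (SE 0.49, 4.95-fold, limma adjusted p = 0.00075). NPG4 fell by 1.82 (SE 0.53), from 8.63 to 9.13 down to 6.64 to 7.31. The groups of both genes lay apart. NPG4 did not pass with normexp background correction (-1.76, limma adjusted p = 0.071). Cathelicidin genes share much sequence, so their probes may read each other.

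LTF, lactoferrin, fell by 2.04 (SE 0.60), PGLYRP1, a bacterial wall binding protein of neutrophil granules, by 2.37 (SE 0.58), and FCN1, a ficolin of neutrophils and monocytes, by 2.16 (SE 0.41). The cathelicidin PMAP-36 ran from -6.22 to 5.60 at day 70 and from -6.88 to 3.54 at day 110. It did not pass, and its arrays overlapped over almost the whole range. MMP9 at -1.25 and NCF1 at -0.94 did not pass either.

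HBE1 and the granulocyte genes PR39 and LTF reached day 70 by different routes. From day 50 to day 70 the median change was -0.72 over the erythroid list and 1.3 over the granulocyte list. Red cell genes varied over those days. HBE1 changed by -1.52 and EPOR by -0.84 (limma adjusted p = 0.0024 and 0.04), RHCE by -0.35 and KCNN4 by -0.72 (0.57 and 0.26). HBE1 had means of 4.50 ± 0.42 (SD, n = 4) at day 37, 4.42 ± 0.44 at day 50, 2.90 ± 0.24 at day 70 and -1.74 ± 0.70 at day 110. Days 37 and 50 did not differ beyond their spread. PR39 went the other way at first, from 4.11 ± 0.86 at day 37 and 5.17 ± 1.08 at day 50 to 7.14 ± 0.39 at day 70, then 4.84 ± 0.21 at day 110. LTF followed the same course, with means of 3.53 ± 1.40, 4.24 ± 1.18, 6.19 ± 0.42 and 4.15 ± 0.34. The day 110 means of PR39 and LTF lay between those of days 37 and 50.

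**Figure D3:**
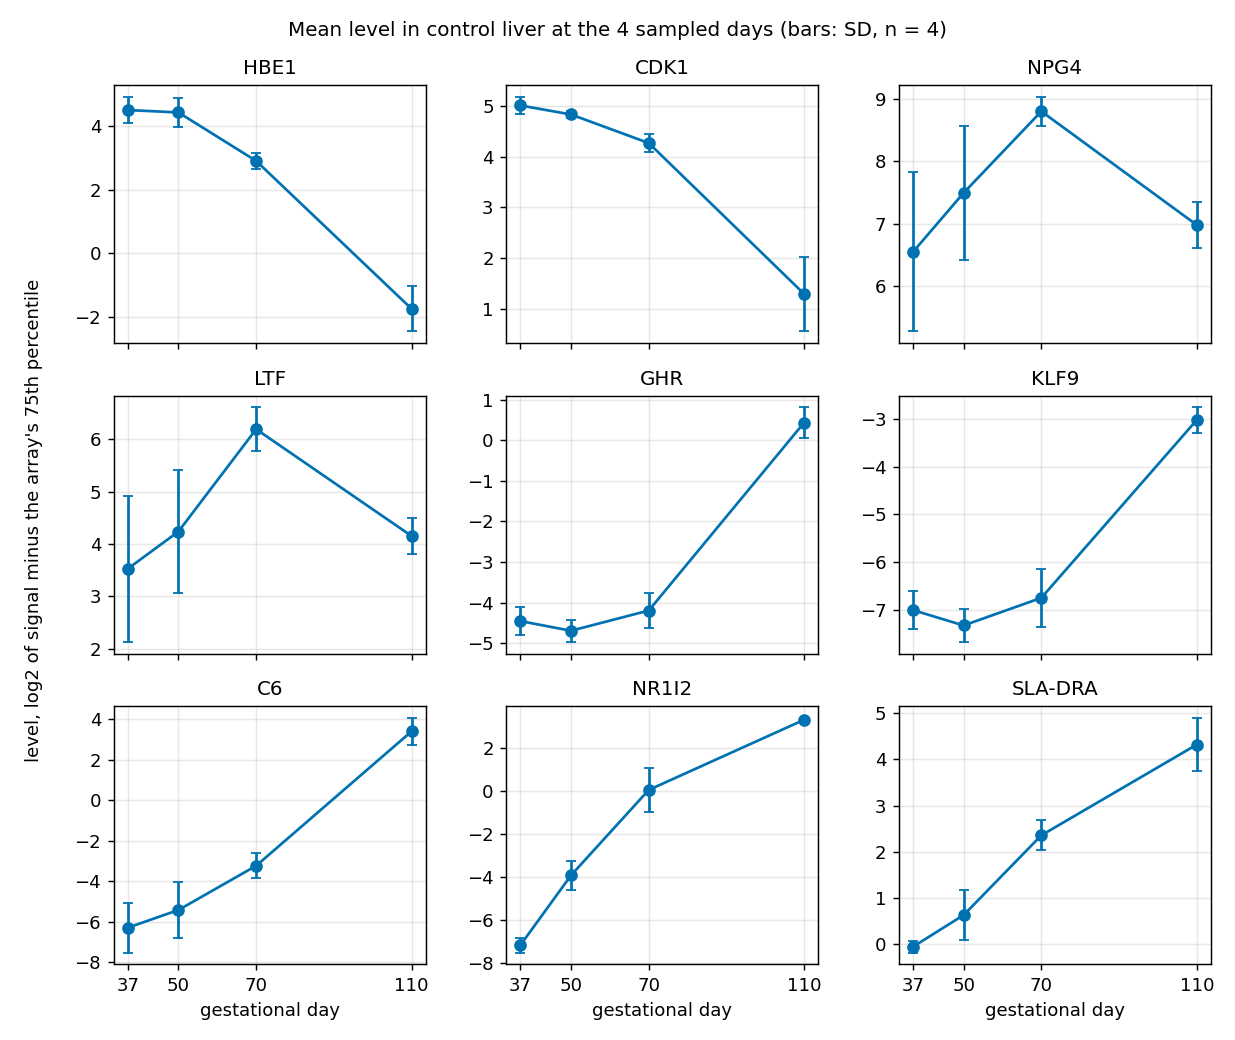
Mean level of 9 genes in control liver at gestational days 37, 50, 70 and 110; bars are the SD of 4 arrays and the y axis of each panel has its own range. HBE1 and CDK1 are lowest at day 110, and NPG4 and LTF are highest at day 70. GHR and KLF9 differ little between days 37, 50 and 70 and are higher at day 110. The means of C6, NR1I2 and SLA-DRA are higher at each later day. KLF9 was well above background on no array of days 37, 50 and 70, and GHR on 2 or 3 a day. C6 was so on no day 37 array and on 2 day 50 arrays, and its change between those days did not pass (limma adjusted p = 0.47).

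Complement genes made the largest rises of the secreted proteins. Of 21 measured, 9 rose and 1 fell, with a median of 0.50. C6, a component of the membrane attack complex, was at -2.72, -2.80, -3.35 and -4.05 at day 70 and at 2.74, 2.94, 4.02 and 3.92 at day 110. No array came near the other group, and C6 rose by 6.63 (SE 0.67, 99.2-fold, limma adjusted p = 1.5e-08). At day 70, 3 of the 4 arrays were well above background for this probe. A second C6 probe passed too, at a fitted 5.25 (SE 0.37), but was above background on no day 70 array. The size of the C6 rise therefore depends on the probe.

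Other parts of the same complex moved less. C7 rose by 3.17 (SE 0.54), from -6.01 to -3.21 up to -2.38 to -0.95, C8B by 2.11 (SE 0.41), C8G by 1.04 (SE 0.30) and C9 by 1.08 (SE 0.24), while C8A at 0.47 and C5 at 0.47 did not pass. C7 did not pass with normexp background correction, at 0.97. The other 2 probes of C9 gave 2.65 and 2.30 and passed too. C8G came under 2-fold without day 70 replicate 2 (0.97) or day 110 replicate 4 (0.98), and with slide as a block (0.95). Of the classical and lectin pathways, C2 rose by 1.85, C4A by 2.38 and MASP2, the lectin pathway protease, by 2.52 (SE 0.34). C3, at which the pathways meet, did not pass at 0.18 (SE 0.44).

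C4BPA, the alpha chain of the inhibitor that binds C4b, was at -0.55, -2.30, 1.67 and 1.49 at day 70 and at 5.14, 5.36, 5.35 and 4.11 at day 110. Its day 70 arrays were widely spread, and it rose by 4.91 (SE 1.18, 30.1-fold). CD55, which shields cells from complement, was the member that fell, by 2.58 (SE 0.45), from 0.22 to 1.19 down to -3.49 to -0.94. Within slides 1 to 3, which hold 1 of the day 110 and 2 of the day 70 arrays, 1 complement gene rose and 1 fell.

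Clotting factors rose in part. Of 14 measured coagulation genes, 3 rose and 0 fell (21.4%), near the 17.9% of all genes with a symbol. The 3 that rose were the vitamin K dependent proteases F7, by 1.80 (SE 0.25), F10, by 1.28 (SE 0.14), and F9, by 1.08 (SE 0.16). F10 was at 4.12, 4.03, 4.12 and 3.81 at day 70 and at 5.47, 5.23, 5.26 and 5.24 at day 110. Both groups were tight and lay apart. F9 came just under 2-fold without day 70 replicate 4 (0.99) or day 110 replicate 1 (0.98), and within slides 4 to 9 (0.97). A second F9 probe passed at 1.38. F2, prothrombin, did not pass at 0.27 (SE 0.20), and SERPINC1, antithrombin, did not at 0.18 (SE 0.18).

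The acute phase list had 5 of 15 measured members that rose and 0 that fell. APCS, serum amyloid P, was at 0.97, 1.50, 1.43 and 0.56 at day 70 and at 4.80, 5.13, 6.18 and 4.73 at day 110, and is outside that list. It rose by 4.09 (SE 0.52, 17.1-fold), with a wide gap between the groups. CRP, C-reactive protein, rose by 1.61 (SE 0.30), and CD14, the endotoxin receptor, by 2.29 (SE 0.23). SAA3, a serum amyloid A, rose by 2.23 (SE 0.51), but day 70 replicate 2, at 2.63, lay within the day 110 range of 2.41 to 3.21. SAA3 did not pass on the 8 arrays alone (limma adjusted p = 0.0511), with the replicate number as a block (0.0766) or within slides 4 to 9, where the change was 1.29 (0.225). A second SAA3 probe passed at 1.93. IL6 rose by 2.31 (SE 0.55) with 1 day 70 array well above background. IL6 changed by 0.21 with normexp background correction and did not pass. PIGR, which carries antibodies across epithelia, was above background on no day 70 array and was at least 1.22-fold higher at day 110. PIGR did not pass with normexp background correction (0.10).

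The abundant plasma proteins stood apart from these. Of 15 measured, 0 rose and 0 fell (limma, with 8 at an unadjusted p under 0.05), and changes ran from -0.60 for TF, transferrin, to 0.66 for HPX, haemopexin. ALB, albumin, changed by -0.04 (SE 0.59) and TTR, the thyroid hormone carrier transthyretin, by -0.13 (SE 0.49). The count stayed at 0 in every alternative setting that kept the 2-fold threshold. RBP4, the retinol carrier, at -0.50 (SE 0.16), and TF had limma adjusted p of 0.018 and 0.027 at changes under 2-fold.

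Among enzymes of drug and steroid conjugation, a few genes rose very far. Of 14 measured phase II and transport genes, 3 rose and 1 fell. GSTA1, a glutathione transferase, was at -1.11, -2.05, -0.40 and 0.91 at day 70 and at 3.88, 5.78, 6.98 and 6.41 at day 110. It rose by 6.43 (SE 0.94, 86.2-fold, limma adjusted p = 6.7e-06), and the lowest day 110 array, replicate 1, still lay above every day 70 array. SULT2A1, which sulfates steroids and bile acids, rose by 4.30 (SE 0.66, 19.8-fold), from 0.29 to 2.26 up to 5.22 to 5.88. SLC15A1, the proton-coupled peptide transporter, was at -2.08, -1.73, 0.16 and -1.11 at day 70 and at 3.84, 3.49, 3.49 and 3.65 at day 110, a rise by 4.81 (SE 0.58). SULT1A3, a phenol sulfotransferase, fell by 1.94 (SE 0.29), from 4.81 to 5.35 down to 2.81 to 3.39.

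Of 23 measured phase I enzymes, 3 fell and 0 rose by limma (13%), against 17.9% called among all genes with a symbol. Under 5 of the alternative settings 2 or 3 rose. CYP1A1, which oxidises aromatic hydrocarbons, fell by 3.00 (SE 0.81), CYP2C33 by 1.25 (SE 0.27) and MAOB, a monoamine oxidase, by 1.08 (SE 0.16). MAOB was just short of 2-fold without day 110 replicate 4. A second MAOB probe, at -0.94, was under 2-fold. CYP1A1 did not pass with normexp background correction (-1.03) or within slides 4 to 9 (-2.62), nor did CYP2C33 within slides 4 to 9 (-0.93). CYP2E1, which oxidises ethanol, had a mean of 2.98 ± 3.20 (SD, n = 4) at day 70 and 6.92 ± 0.62 at day 110, a change of 3.94 that did not pass (SE 1.89). A second probe of CYP2E1 passed at 4.14 (SE 1.38). CYP4A21 at 1.64 (SE 0.64) did not pass, though it did without day 70 replicate 3 (2.37) and within slides 4 to 9 (2.43). CYP4A21 also passed with the series matrix values, normexp background correction, quantile normalization or slide as a random block. CYP3A29 was above background on no day 70 array and did not pass. It did without day 110 replicate 4 and on the 8 arrays alone (limma adjusted p = 0.0151). The same held with the replicate number or slide as a block, the series matrix values and quantile normalization.

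NR1I2, the pregnane X receptor that senses drugs and bile acids, led the liver transcription factors, of which 3 of 17 measured rose and 0 fell. That share, 17.6%, was near the 17.9% of all genes with a symbol. NR1I2 was at 0.95, 0.08, 0.57 and -1.35 at day 70 and at 3.35, 3.24, 3.43 and 3.28 at day 110, a rise by 3.27 (SE 0.41, 9.61-fold). The day 110 arrays were nearly alike. Its mean had already gone from -7.15 ± 0.35 at day 37 to -3.91 ± 0.67 at day 50 and 0.06 ± 1.01 at day 70. PROX1, needed for hepatocyte identity, rose by 1.09 (SE 0.16) and GATA4 by 1.32 (SE 0.24). Without day 110 replicate 4 PROX1 was just short of 2-fold, at 0.99. HNF4A, the main hepatocyte regulator, changed by 0.07 (SE 0.24) and did not pass. With normexp background correction 1 of the 17 rose.

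The growth hormone axis held 5 genes that rose and 1 that fell among 17 measured. GHR, the growth hormone receptor, was at -4.59, -4.24, -4.37 and -3.58 at day 70, with 2 arrays well above background, and at 0.03, 0.28, 0.54 and 0.91 at day 110. The groups were far apart, and GHR rose by 4.63 (SE 0.29, 24.8-fold, limma adjusted p = 2e-11). Its earlier means were -4.46 ± 0.34 (SD, n = 4) at day 37 and -4.69 ± 0.27 at day 50, so days 37, 50 and 70 lay close together. SOCS2, which growth hormone induces and which dampens its receptor, rose by 2.53 (SE 0.23), from -2.61 to -2.35 up to -0.53 to 0.53. IGFALS, the subunit that holds IGFs in the circulation, rose by 2.39 (SE 0.33). The other risers were KLF10, by 1.03 (SE 0.27), and STC1, stanniocalcin, which was above background on no day 70 array and at least 1.22-fold higher at day 110. KLF10 came under 2-fold without replicate 2 of either day or day 110 replicate 3 (0.88 to 1.00). STC1 did not pass within slides 4 to 9 (limma adjusted p = 0.0895). With normexp background correction KLF10 changed by 0.29 and STC1 by 0.08, and neither passed.

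The IGFs themselves moved little. IGF1 changed by 0.52 (SE 0.24) and IGF2 by -0.19 (SE 0.20), without passing, and the 4 other IGF2 probes ran from -0.23 to -0.17. STAT5A, a transcription factor downstream of the receptor, fell by 1.53 (SE 0.22), and STAT5B, its close relative, changed by -0.47 without reaching 2-fold. IGFBP2 at 1.13 (SE 0.46) and IGFBP3 at -0.20 (SE 0.22) did not pass. IGFBP2 did on the 8 arrays alone (limma adjusted p = 0.0121), with the replicate number as a block (0.046), the series matrix values or quantile normalization. With normexp background correction 2 genes of the axis rose and 0 fell.

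Of 12 measured genes of cortisol action and of the thyroid hormone system that cortisol matures, 4 rose and 0 fell. KLF9, a transcription factor that both hormones induce, was well above background on no day 70 array and on all 4 day 110 arrays. It was at -7.10, -7.23, -6.76 and -5.89 at day 70 and at -3.22, -3.23, -2.96 and -2.68 at day 110, at least 3.11-fold higher (limma adjusted p = 1.3e-10). KLF9 changed by 0.60 with normexp background correction, below that bound, and did not pass (limma adjusted p = 0.49). HSD11B1, which regenerates active cortisol inside cells, rose by 1.57 (SE 0.23), from 3.76 to 4.78 up to 5.28 to 6.10. DIO1, the deiodinase that makes active thyroid hormone, was at 1.88, 1.57, 0.17 and 0.88 at day 70 and at 3.67, 4.30, 4.19 and 4.11 at day 110. It rose by 2.94 (SE 0.54, 7.68-fold), with no overlap.

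ANGPTL4, an inhibitor of lipoprotein lipase that glucocorticoids induce, rose by 1.93 (SE 0.36). NR3C1, the glucocorticoid receptor, changed by 0.51 (SE 0.16) and NFKBIA by 0.59 (SE 0.13), with limma adjusted p of 0.021 and 0.00096 but under 2-fold. DIO3, the deiodinase that inactivates thyroid hormone, did not pass at -0.93 (SE 0.63). SERPINA6, the cortisol carrier of plasma, changed by -0.48 (SE 0.18).

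The fuel metabolism lists had shares of genes that passed near or below the 17.9% of all genes with a symbol. CPT1A, which lets fatty acids into mitochondria, rose by 1.57 (SE 0.24), from 2.16 to 2.91 up to 3.67 to 4.39. PDK4, which spares glucose by blocking pyruvate dehydrogenase, rose by 2.59 (SE 0.47), from -1.64 to 0.06 up to 0.70 to 2.91, and of its other 2 probes 1 passed at 2.71 and the other did not at 0.44. OXCT1, the enzyme by which tissues other than adult liver use ketone bodies, fell by 2.05 (SE 0.24), from 1.43 to 2.40 down to -0.40 to 0.33. Of 19 measured genes of fatty acid oxidation and ketogenesis, 1 rose and 3 fell (21.1%). The other 2 that fell were the mitochondrial uncoupling proteins UCP2, by 1.23 (SE 0.30), and UCP3, for which no fold is given. UCP2 came under 2-fold without day 70 replicate 1 (-0.87) and did not pass with the replicate number as a block (limma adjusted p = 0.0568). UCP3 was well above background on 1 day 70 array and on no day 110 array, and its call was lost without any of 7 of the 8 arrays, with normexp background correction and under 6 other alternatives.

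PDK4 was also the member that passed among 12 measured genes of the glycolysis list (8.33%), and did not pass by the median over its probes (0.68). In glucose metabolism, PC, pyruvate carboxylase, rose by 1.07 (SE 0.17), from 3.26 to 3.81 up to 4.46 to 4.84. It was the member that passed among 7 measured genes of the gluconeogenesis list (14.3%). It came just under 2-fold without day 70 replicate 4 (0.97) or day 110 replicate 4 (0.98), and within slides 4 to 9 (0.98). PPARGC1A, a coactivator of gluconeogenesis, changed by 0.94 (SE 0.18) and SLC2A2, the liver glucose transporter, by 0.66 (SE 0.20), both under 2-fold. FBP1, which removes a phosphate late in gluconeogenesis, changed by 0.08 (SE 0.22).

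Fat synthesis and storage genes gave 1 rise and 2 falls among 19 measured (15.8%). LIPE, hormone-sensitive lipase, fell by 1.65 (SE 0.15), from 1.71 to 2.13 down to 0.12 to 0.44, and PNPLA3, another lipase of lipid droplets, by 1.68 (SE 0.33). Of the other 2 PNPLA3 probes 1 passed at -1.63 and the other did not at -0.96. LEPR, the leptin receptor, was the riser, but it was well above background on no day 70 array and on 1 day 110 array, so no fold is given, and it did not pass with normexp background correction. FASN, fatty acid synthase, changed by 0.16 (SE 0.19) and ACLY by -0.14 (SE 0.18), without passing. Of 20 measured genes of lipid transport, 2 rose and 2 fell (20%). PLIN2, a lipid droplet coat protein, was 1 of those that fell, by 1.15 (SE 0.24). PLIN2 came under 2-fold without day 70 replicate 4 (-0.97) and within slides 4 to 9 (-0.64), and did not pass with the replicate number as a block (limma adjusted p = 0.0643). The risers were ANGPTL4, given above, and FABP4, a fatty acid carrier, which was above background on no day 70 array and at least 2.27-fold higher at day 110. FABP4 did not pass without day 110 replicate 1 (1.67, limma adjusted p = 0.0552), on the 8 arrays alone (0.103), with the replicate number as a block (0.117) or with normexp background correction (0.862). Of 8 measured genes of cholesterol synthesis, 0 passed (limma, with 3 at an unadjusted p under 0.05). CYP7A1, which starts bile acid synthesis, passed the test, though not with normexp background correction, but was above background on 1 of the 8 arrays, so no fold is given, and CYP8B1 did not pass at -0.18 (SE 0.57).

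Of 6 measured genes of the urea cycle and ammonia, 1 fell and 1 rose. ARG1, the last enzyme of the urea cycle, was at 6.55, 6.40, 6.35 and 6.10 at day 70 and at 5.16, 4.90, 5.42 and 4.76 at day 110, and it fell by 1.29 (SE 0.16). GLUL, glutamine synthetase, was at 0.10, 0.46, 1.43 and 0.73 at day 70 and at 2.29, 2.95, 2.34 and 2.75 at day 110, a rise by 1.90 (SE 0.31). Neither pair of groups overlapped. OTC, an earlier step of the urea cycle, changed by -0.06 (SE 0.24). Of 11 measured genes of amino acid breakdown, 2 rose and 0 fell (18.2%). GNMT, a methyl group acceptor enzyme, rose by 1.45 (SE 0.40) with overlapping groups, and DAO, D-amino acid oxidase, by 1.51 (SE 0.55). DAO did not pass without any 1 of 6 of the 8 arrays, at changes of 1.28 to 1.58, nor within slides 4 to 9 (1.68) or with no filter on dim probes (limma adjusted p = 0.0603). A second DAO probe passed at 2.02 (SE 0.59). GNMT did not pass with the replicate number as a block (limma adjusted p = 0.0547).

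**Figure D4:**
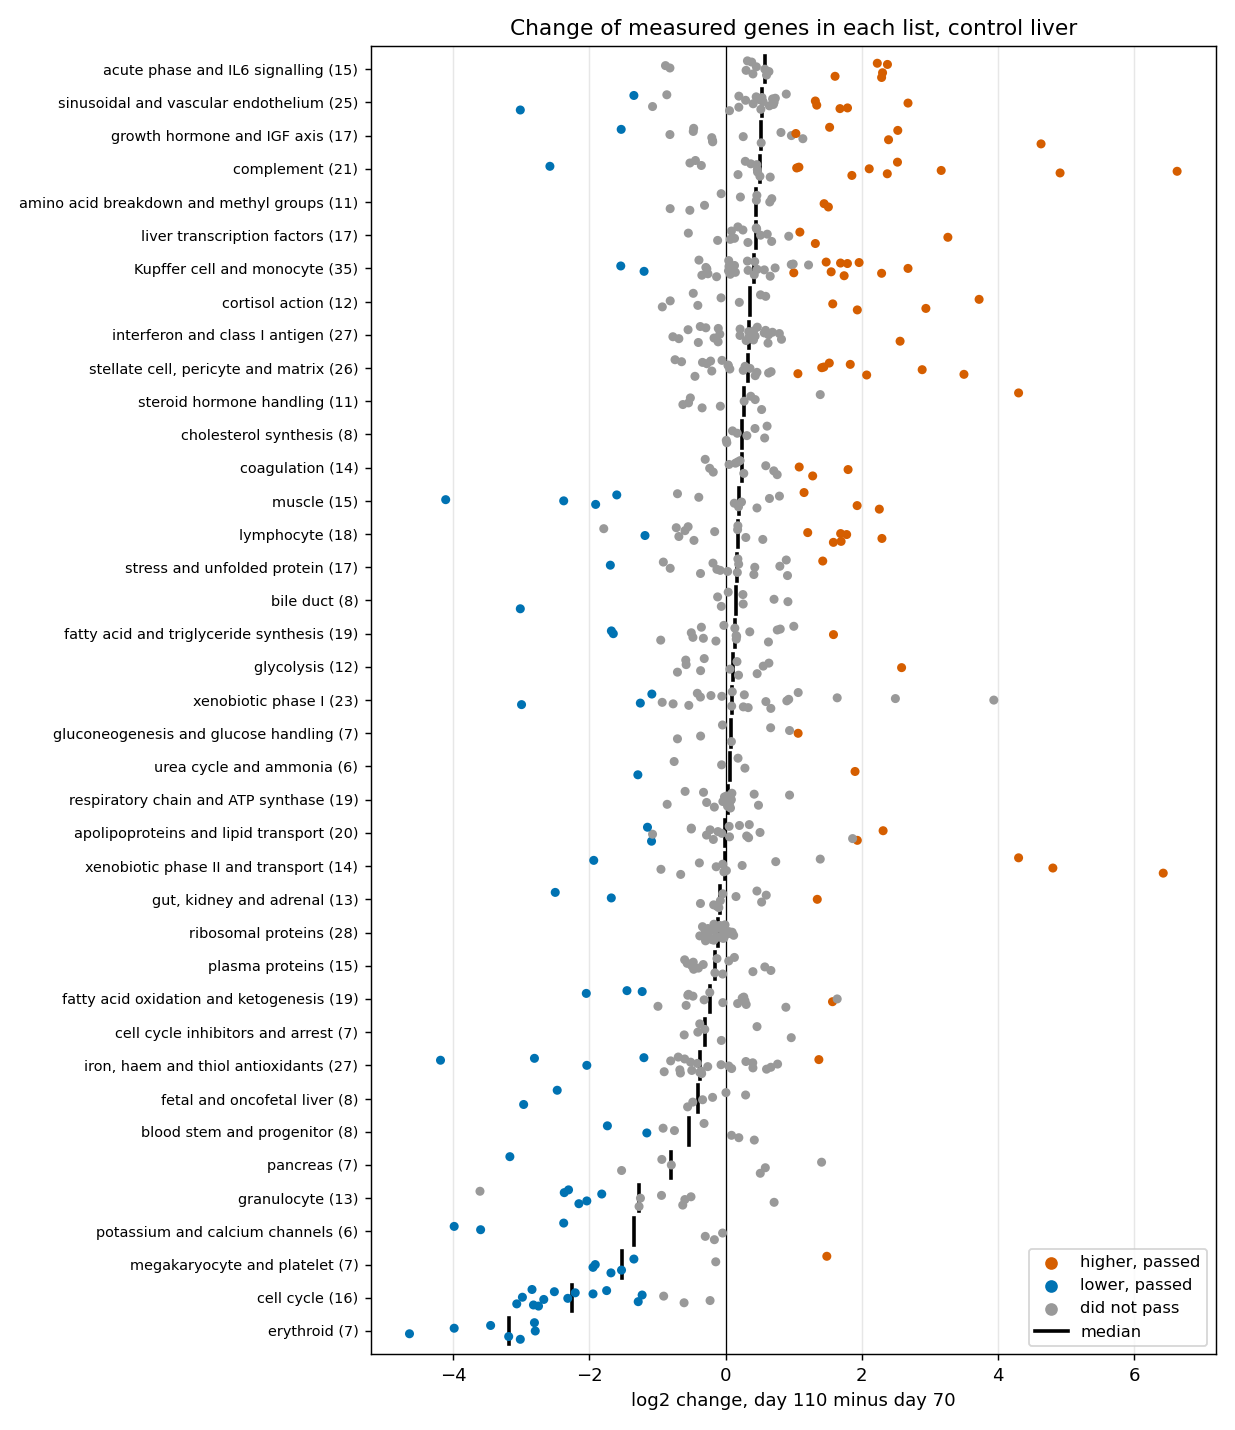
Log2 change from day 70 to day 110 of every measured gene in each list with at least 5 measured genes; the number of genes is in brackets, black bars are medians, orange points rose, blue points fell and grey points did not pass. The erythroid and cell cycle lists lie furthest to the left, at medians of -3.19 and -2.26, and the ribosomal protein list is the narrowest, at a median of -0.11 that becomes 0.05 with quantile normalization.

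Macrophage and antigen presentation genes rose in part. Of 35 measured Kupffer cell and monocyte genes, 9 rose and 2 fell, with a median of 0.42. Besides CD14, which was at 2.95, 3.60, 2.75 and 2.84 at day 70 and at 5.35, 5.28, 5.14 and 5.52 at day 110, the risers included 5 class II antigen genes. SLA-DRA rose by 1.96 (SE 0.31), SLA-DQA1 by 1.79, SLA-DQB1 by 1.69, SLA-DRB1 by 1.48 and CD74, the invariant chain that guides them, by 1.55 (SE 0.24). SLA-DRB1 did not pass without day 110 replicate 4 (1.09, limma adjusted p = 0.0601), with the replicate number as a block (0.0701) or within slides 4 to 9 (0.77). Other SLA-DRB1 probes passed at 1.38 to 1.47. Class II genes share sequence, so their probes may read more than 1 gene.

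FCGR2B, the inhibitory antibody receptor of Kupffer cells and of sinusoidal endothelium, rose by 2.68 (SE 0.38), from 0.22 to 1.67 up to 3.46 to 4.13. CCL2, which attracts monocytes, rose by 1.74 (SE 0.32), and CD163, a haemoglobin scavenger receptor, by 1.00 (SE 0.24). CD86, a T cell costimulator, fell by 1.20 (SE 0.15), and LYZ, lysozyme, fell by 1.54 (SE 0.57). Leaving out 1 array ended the call of CD163 for 4 of the 8 arrays (0.86 to 0.96) and that of LYZ for 7 (-1.64 to -1.39). Other CD163 probes passed at 1.16 and 1.05. LYZ also did not pass under 5 other alternatives, among them the series matrix values (limma adjusted p = 0.0508), and CD86 came under 2-fold with normexp background correction (-0.95). Within slides 1 to 3, 2 of the 35 rose and 1 fell. The means of 3 measured Kupffer cell markers (CD14, CD163 and SIGLEC1) were 0.74 to 1.40 on the day 70 arrays and 2.49 to 2.77 on the day 110 arrays, while SIGLEC1 itself did not pass at 1.22 (SE 0.53).

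Of 18 measured lymphocyte genes, 6 rose and 1 fell. CD3G, a chain of the T cell receptor complex, was at -4.92, -4.81, -4.71 and -5.82 at day 70, with 2 arrays above background, and at -2.35, -3.03, -2.91 and -2.79 at day 110. It rose by 2.30 (SE 0.27) with no overlap. CD2, a T cell adhesion receptor, was above background on no day 70 array and was at least 1.18-fold higher at day 110. CCR7, GATA3, CD8A and GZMB rose by 1.58, 1.69, 1.78 and 1.21, while CD3E at 0.55 (SE 0.45) and CD247 at -0.46 (SE 0.33), other chains of the same receptor complex, did not pass. CD79A, a chain of the B cell receptor, fell by 1.18 (SE 0.36). CD79A did not pass without replicate 4 of either day (limma adjusted p = 0.0659 and 0.0606), GZMB without day 70 replicate 2 (0.70), and CD8A without day 70 replicate 2 (1.20) or day 110 replicates 1 (1.72) or 3 (1.68). With the replicate number as a block CD79A, GATA3 and GZMB did not pass (limma adjusted p = 0.0899, 0.0639 and 0.102). With normexp background correction 0 of the 17 genes that could be fitted passed.

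CXCR6, a chemokine receptor of T and natural killer cells that stay in the liver, was above background on no day 70 array. It was at -5.17, -6.62, -5.73 and -5.58 at day 70 and at -1.84, -1.84, -1.37 and -0.88 at day 110, at least 8.73-fold higher. DEFB1, a beta-defensin of epithelia, rose by 4.59 (SE 0.62, 24.1-fold), from -1.28 to -0.35 up to 3.47 to 4.24. Of 27 measured interferon and class I antigen genes, 1 rose, GBP1, a guanylate-binding protein, by 2.56 (SE 0.49).

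Of 25 measured endothelial genes, 5 rose and 2 fell, with a median of 0.53. CAV1 and CAV2, the caveolins that form membrane pits, rose by 1.68 (SE 0.33) and 1.79 (SE 0.21), and EDN1, endothelin, by 1.34 (SE 0.32). CAV2 was at 0.30, -0.74, -0.46 and -0.22 at day 70 and at 1.64, 1.61, 1.20 and 1.58 at day 110. EDN1 changed by 0.12 with normexp background correction and did not pass. GATA4 and FCGR2B, given above, were the other risers, and AQP1 and SELP, both also blood cell genes, were the genes that fell. The defining vessel genes CDH5, PECAM1, NOS3 and ENG changed by 0.64, 0.53, 0.69 and 0.40, each with a limma adjusted p under 0.05 but under 2-fold. A second probe of NOS3 gave -0.03 and 1 of PECAM1 gave 0.37, neither with an adjusted p under 0.05.

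Of 26 measured genes of stellate cells, pericytes and matrix, 8 rose and 0 fell. COL8A1, a short-chain collagen, was at -1.08, -0.85, -0.95 and -1.17 at day 70 and at 2.11, 2.49, 2.69 and 2.66 at day 110. The groups were tight, and it rose by 3.50 (SE 0.54, 11.3-fold). MGP, which inhibits calcification of matrix, rose by 2.89 (SE 0.52), from 0.84 to 3.30 up to 4.06 to 4.90. COL5A3 rose by 2.07 (SE 0.43), the growth factor TGFB3 by 1.83 (SE 0.25) and RGS5, a pericyte gene, by 1.44 (SE 0.44). SPARC at 0.29 and DCN, decorin, at 0.63 did not pass. DES, a stellate cell marker, has probes that disagree: the brightest did not pass at 0.46 (SE 0.29), while the other 2 rose by 1.10 (SE 0.33) and 1.70 (SE 0.33). RGS5 did not pass without day 110 replicate 1 (1.19) or 3 (1.20) or with the replicate number as a block (limma adjusted p = 0.0505). The count was 5 without day 110 replicate 1, 4 with normexp background correction and 0 within slides 1 to 3.

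Beside the single rises given above, the mean level of the 3 measured erythroid markers (HBE1, EPOR and RHCE) went from 3.76 to 4.25 at day 70 to -0.71 to 1.33 at day 110. That of 3 granulocyte markers (LTF, PGLYRP1 and PR39) went from 5.59 to 6.25 down to 3.40 to 4.04. None of these 6 markers was at background on all arrays of a day. The part of these marker levels in the rises of other genes was not tested.

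Genes of the early fetal liver behaved unevenly. Of 8 measured genes of the fetal and oncofetal list, 2 fell and 0 rose. PLAGL1, an imprinted transcription factor, was at 1.15, 0.84, 1.36 and 1.24 at day 70 and at -1.32, -1.46, -0.71 and -1.82 at day 110, and it fell by 2.47 (SE 0.18). CITED1, a transcriptional cofactor, fell by 2.97 (SE 0.43), and its course began at 1.45 ± 0.37 (SD, n = 4) at day 37. With normexp background correction CITED1 changed by -0.93 and did not pass (limma adjusted p = 0.06). AFP, the fetal plasma protein alpha-fetoprotein, changed by -0.56 (SE 0.30) and did not pass, with means of 9.58 ± 0.45 at day 70 and 9.02 ± 0.41 at day 110. DLK1, a hepatoblast surface protein, has 2 probes that disagree: the brighter changed by -0.48 (SE 0.32) and the other fell by 4.74 (SE 0.53).

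STEAP1, a member of a metalloreductase family, was at -0.78, -0.40, -0.50 and 0.04 at day 70 and at -4.41, -4.70, -4.47 and -4.82 at day 110. It fell by 4.19 (SE 0.29, 18.2-fold) with day 110 arrays that lay close together. KCNN3, a calcium-gated potassium channel, fell by 3.60 (SE 0.44) with 2 day 110 arrays above background. With KCNN4 and RYR1, the calcium release channel of muscle, it made 3 falls and 0 rises among 6 measured channel genes, and RYR1 was at least 1.58-fold lower. UPK2, a uroplakin, fell by 3.39 (SE 0.41). COX8H, the heart form of a cytochrome oxidase subunit, fell by 3.42 (SE 0.68), from a wide day 70 range of -4.80 to -0.50. At day 110 UPK2 was above background on 2 arrays and COX8H on 1, so the size of both falls is uncertain. A second COX8H probe passed at -2.51 and was above background on no day 110 array. CA3, a carbonic anhydrase abundant in liver and muscle, rose by 3.65 (SE 0.52), from -1.40 to -0.60 up to 2.18 to 2.94. Of 27 measured genes of iron, haem and thiol antioxidants, 4 fell and 1 rose (18.5%). Those that fell were STEAP1, TFRC, LTF and TXN, or thioredoxin (-1.20, SE 0.16), and the riser was STEAP4 (1.37, SE 0.42). TXN was under 2-fold on a second probe (-0.94) and within slides 4 to 9 (-0.98), and STEAP4 did not pass with normexp background correction (0.69). Of 17 measured stress genes, 1 fell and 1 rose (11.8%). HSPA6, a heat shock protein, fell by 1.69 (SE 0.17) and JUN, an immediate early transcription factor, rose by 1.43 (SE 0.28).

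Markers of organs that could enter a liver sample were also read. Of 7 measured pancreas genes, PLA2G1B, the pancreatic phospholipase, fell by 3.17 (SE 0.49), from -1.85 to 0.30 down to -5.10 to -3.42, and the other 6 did not pass. Of 15 measured muscle genes, 3 rose and 4 fell. CKM, the muscle creatine kinase, rose by 2.26 (SE 0.40), from -0.44 to 1.12 up to 2.53 to 3.14, while MYH7, the slow and cardiac myosin chain, fell by 1.91 (SE 0.45) on 1 probe and did not pass on the other, at -0.41. TNNI1, RYR1 and TNNT3 (-1.60, SE 0.54) were the other muscle genes that fell, and TPM2 (1.15, SE 0.16) and MYH1 (1.93, SE 0.63, at least 1.52-fold higher) the others that rose. Leaving out 1 array ended the call of MYH1 for 5 of the 8 arrays (1.60 to 1.87), of TNNT3 for 4 (-1.54 to -1.18), and of RYR1 for day 70 replicate 4 (-1.52) and day 110 replicate 2 (-2.16). With normexp background correction, and on the 8 arrays alone, MYH1, TNNT3 and RYR1 did not pass. Of 13 measured gut, kidney and adrenal genes, SLC34A1, a renal phosphate transporter, fell by 2.50 (SE 0.52) and ENPEP, an aminopeptidase, by 1.68 (SE 0.40), while DPP4, a peptidase of bile canaliculi and gut, rose by 1.35 (SE 0.20). SLC34A1 did not pass with normexp background correction (-0.79). Of 8 measured bile duct genes AQP1 fell and 0 rose, and of 11 measured steroid hormone genes SULT2A1 rose and 0 fell.

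Of 28 measured ribosomal protein genes, 0 passed (limma, with 1 at an unadjusted p under 0.05), and changes ran from -0.38 to 0.12. Their median of -0.11 became 0.05 with quantile normalization, so its sign depends on the scaling. Of 19 measured genes of the respiratory chain and ATP synthase, 0 passed (limma, with 4 at an unadjusted p under 0.05), and 1 passed under 4 of the alternative settings that kept the 2-fold threshold. ATPIF1, the inhibitor of ATP synthase, was lowest at -0.86 (SE 0.12) and PPARGC1A highest at 0.94. Of 2 measured clock genes 0 passed, with ARNTL at 0.81 (SE 0.23).

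Most features that passed carry no symbol here, 3274 of 3560. The probe A_72_P127076 rose by 6.72, from -4.38 to -0.64 up to 1.56 to 5.51, and A_72_P157696 by 6.71. The probe A_72_P365278 fell by 5.47, to between -3.25 and 0.05, and A_72_P125641 by 4.99. Both probes that fell were highest in day 110 replicate 3 and lowest in replicate 4, the order of the red cell genes.

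Runt littermates passed through a similar change over the same days. In runts 3188 features passed (11.1%), and among genes with a symbol 261 did, 121 higher and 140 lower. Of these, 221 also passed in the same direction in controls, which is 77.3% of the 286 control genes and 84.7% of the 261 runt genes, and 0 passed in opposite directions. Controls and runts share no array but come from the same litters. The test of the difference itself, the runt change minus the control change, called 0 of 28670 features (limma, with 496 at an unadjusted p under 0.05). Those 496 are fewer than a threshold of 0.05 would mark by chance alone. The fit took littermates as unrelated animals.

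GSTA1 changed by 6.43 in controls and 3.42 in runts, a difference of -3.01 (SE 1.33). GLUL changed by 1.90 and 0.54, a difference of -1.36 (SE 0.44), and COL8A1 by 3.50 and 1.91, a difference of -1.59 (SE 0.77). HBE1 changed by -4.64 and -5.74, a difference of -1.09 (SE 0.48). The limma adjusted p was 1 for each. With 4 fetuses a group, differences of this size between runts and controls were not resolved once all features were tested.

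**Figure D5:**
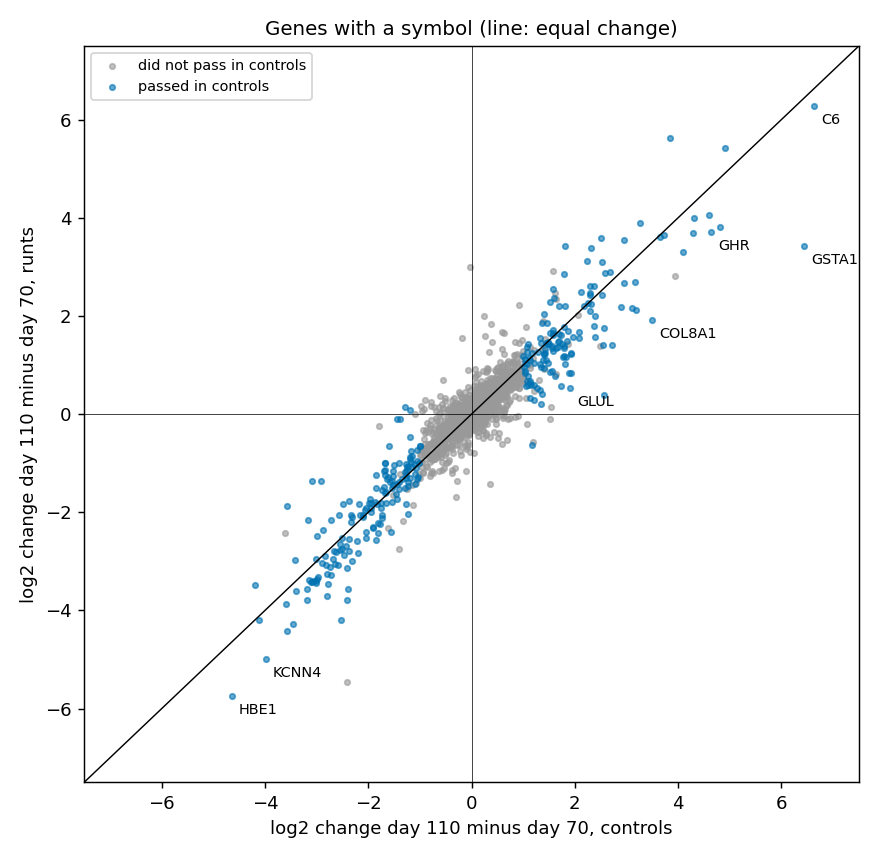
Log2 change from day 70 to day 110 in controls (x axis) and in runts (y axis) for the 1596 features with a symbol; blue points passed in controls, grey points did not, and the line marks equal change. C6 lies near the line at 6.63 and 6.29, while GSTA1, GLUL and COL8A1 lie below it, with differences that did not pass.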

How the data were processed

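Liver RNA of 32 fetuses was read on single-colour Agilent arrays with Feature Extraction 10.7.3.1, per the file headers. The deposited processed signal of a spot is a background-subtracted fluorescence intensity, per the file headers. An alternative used the deposited table of log2 values, whose columns share 1 maximum (18.47). The submitters' processing notes name Partek, without a version.

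Control and outlier spots were left out, spots of a probe averaged, and each array's 75th percentile of the log2 signal subtracted. Of 43603 probes, 2683 were given 1904 symbols through the RefSeq accession of the array design, matched without version to the pig annotation Sscrofa11.1. No genome position or sequence is given. Probes well above background on at least 3 of 4 arrays of a group were kept, and the probe with the highest mean stood for a symbol. A fold against a group with 0 arrays well above background is given as "at least". It is then taken against the lowest signal that was well above background, or the probe's own where higher. One mean per group (8 groups) was estimated from all 32 arrays by limma 3.58.1 in R 4.3.3 (24 residual degrees of freedom), and p-values were Benjamini-Hochberg adjusted over all features. Tests were two-sided. SE is that of the fit. A feature missing a value on an array (245 were) was fitted without it.

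On simulated arrays of this comparison (28670 features, 50 changed by each size), 50 falls and 48 rises of 3 log2 units and 38 falls and 39 rises of 1.5 were called, with 3 false calls. The simulated noise was normal and independent between arrays and features. Variation shared by genes of an array or by littermates, and array position, were therefore not covered. The number of arrays, 4 a group, limits the precision.

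The comparison, the 41 gene lists (1733 symbols, of which 548 were measured) and the tests were chosen with earlier results of these data known, and support nothing by themselves. Named genes are the 12 largest rises and 12 largest falls that passed, had groups apart and were above background on all 4 arrays of the higher group, with members of the lists. APCS, DEFB1 and others outside the lists come from the first part of that rule.

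Alternatives were the series matrix values, normexp background correction (on the median signal, the mean signal not being used here, offset 50), quantile and median scaling, 2 other filters, the 8 arrays alone, replicate and slide blocks, the 2 sets of slides, a trended variance, the median over probes, leaving out each array, and no fold threshold. A random block of day and replicate number was added after the data had been seen, because controls and runts are littermates. Some genes are not reported here.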

Additional observations from a re-analysis of the deposited data

Results flagged for a closer look

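Among the 189 genes named, 378 groups of 4 arrays were examined for 1 array far from the other 3, and 14 groups (3.7%) had one by Dixon's test. Chance alone marks about 1 in 20 groups. At day 70, replicate 4 was high for CD247 (0.79, others -1.19 to -1.13), a T cell receptor chain, for MYH1 (-3.84, others -6.98 to -6.53) and for STEAP4 (-2.01, others -2.72 to -2.64). Replicate 1 was high for DLK1 (1.61, others 0.44 to 0.58), replicate 2 low for CCNB1 (3.42, others 3.81 to 3.85), and replicate 3 low for C8B (1.61, others 2.26 to 2.30) and high for HSPA6 (0.13, others -0.23 to -0.20).

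At day 110, replicate 1 was high for the clotting factors F9 (4.92, others 4.50 to 4.55) and F10 (5.47, others 5.22 to 5.26) and for CITED1 (-4.79, others -5.61 to -5.52). Replicate 3 was high for C2 (2.80, others 1.93 to 2.07) and low for CAV2 (1.20, others 1.58 to 1.64) and MGP (4.06, others 4.88 to 4.90). Replicate 2 was low for STC1 (-4.59, others -4.23 to -4.22). The causes were not tested.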

How the results depend on the processing

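The count of 3560 features stayed within 1.5 times under 21 of 24 alternatives. It was 1542 with normexp background correction (504 higher, 1038 lower), 1873 within slides 1 to 3 (508 higher) and 7587 with no fold threshold (3697 higher, 3890 lower). The share of calls that were higher was 42.7%, against 32.7% with normexp and 27.1% within slides 1 to 3, which hold 1 day 110 and 2 day 70 control arrays. The median over all features was -0.07 with normexp. Leaving out each array gave 3189 to 3708 features (1326 to 1609 higher, 1863 to 2116 lower), and 0 to 1 for the runt minus control difference, the 1 being without day 110 replicate 3.

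With the replicate number as a block over the 8 arrays, the replicate block count was 3135. Numbers do not pair the fetuses, since those of the 2 days came from different litters. The numbers pair arrays by slide in part: both replicates 1 lay on slide 5 and both replicates 2 on slide 7. Deviations of same-numbered arrays correlated at 0.32, 0.09, -0.13 and 0.08, and those of other pairs at -0.30 to 0.20. Of the 4 numbers, 2 were closest to their own. With a random block of day and number the counts were 3554 and, for the runt difference, 0.

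Of 134 named genes that passed, 50 passed under all alternatives, 72 were lost within slides 1 to 3 and 35 with normexp. No named gene was called in the opposite direction. BTG2, PPARGC1A, CDK4 and ARNTL, short of 2-fold, reached it without 1 array (1.00 to 1.16, 1.03, -1.02 and 1.01). The cause of these shifts was not tested. Signals near background limit folds to bounds, as for KLF9, CXCR6 and CD2, or leave none, as for UCP3, LEPR and CYP7A1.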
